A study of Mus musculus with 18 samples.

Results

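The hypoxia-inducible factor (HIF) subunits comprised 5 genes, the α-subunits *Hif1a*, *Epas1* and *Hif3a* and the β-subunits *Arnt* and *Arnt2*, found by gene identifier among the 78239 genes of the count tables. RNA was sequenced from whole retinas of mice 3 weeks after injection of AAV::*nsHif1a* or AAV::eGFP at postnatal days 29 to 32 (5 libraries per group), and from 661W cells 20 h after transfection with CMV-*nsHif1a* or CMV-eGFP (4 libraries per group). The study's methods describe nsHIF1A as a Myc-tagged mouse HIF1A with 3 residues replaced by alanine, which is active at normal oxygen. In vivo, both vectors carried a rod-specific promoter, so that transgene expression was directed to rods within the area reached by the injection. The paper reports expression restricted to rods for eGFP, and a transduced area that covered only part of the retina. RNA came from all retinal cells. The labels give C57BL/6J as the genotype of the mice, while the methods name 129S6, and these cannot be reconciled here. 661W is a photoreceptor-like line derived from a mouse retinoblastoma, and each group of its libraries was labelled with replicate numbers only. Nothing states that the cell libraries came from separate cultures, so their *p*-values measure the spread between these samples, which may be technical.

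Each HIF pairs 1 α-subunit, which carries the response to oxygen, with 1 β-subunit that it needs to bind DNA. When oxygen is present, prolyl hydroxylases (the EGLN proteins) modify the α-subunit, the von Hippel-Lindau (VHL) complex binds it and it is degraded, while the asparaginyl hydroxylase FIH (*Hif1an*) keeps its C-terminal domain from binding coactivators. In retina, HIF1A is studied mainly in photoreceptors and other neurons, and the HIF2A protein encoded by *Epas1* in endothelium and glia. Control of the α-subunits is exerted largely on the protein, which RNA counts do not measure.

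The replaced residues mark where the α-subunits are sensed, and the coding sequences around these codons are shown because reads from endogenous *Hif1a* and from *nsHif1a* differ there and were counted under the same gene. The residues were found in the translated canonical transcripts of the gencode M39 annotation of GRCm39 by a search for leucine, any pair of residues, leucine, alanine and proline, and for aspartate or glutamate, cysteine, glutamate, valine and asparagine. Capitals mark the codon of the hydroxylated residue, and positions are counted from the first methionine. *Hif1a* encodes 836 residues in transcript Hif1a-201, and its matches fell on the positions replaced in nsHIF1A (P402A, P577A and N813A).
Hif1a P402, chr12:73986457-73986501, plus strand: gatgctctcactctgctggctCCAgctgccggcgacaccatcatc
Hif1a P577, chr12:73988744-73988788, plus strand: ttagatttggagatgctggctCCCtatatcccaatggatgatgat
Hif1a N813, chr12:73992382-73992426, plus strand: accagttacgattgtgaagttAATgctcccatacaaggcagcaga
Epas1 P405, chr17:87131992-87132036, plus strand: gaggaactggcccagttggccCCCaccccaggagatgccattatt
Epas1 P530, chr17:87134935-87134979, plus strand: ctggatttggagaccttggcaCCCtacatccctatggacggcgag
Epas1 N851, chr17:87138435-87138479, plus strand: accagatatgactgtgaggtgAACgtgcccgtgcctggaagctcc
Hif3a P489, chr7:16775109-16775153, minus strand: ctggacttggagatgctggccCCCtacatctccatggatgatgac
Epas1-201 (874 residues) held all 3 kinds of match, Hif3a-202 (664 residues) held 1 proline match and no asparagine match, and Arnt-202 (791 residues) and Arnt2-201 (712 residues) held none. A missing match says only that these residues do not stand in that order in the transcript examined.

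Libraries held between 12898220 and 17809585 counts, and a count of 3 was worth 0.168 to 0.233 CPM (a gene's counts scaled to a common library total). This floor reflects counting error alone. The libraries differed beyond the vector. *Xist* counts were high (19492 to 28595) in all 5 retinal *nsHif1a* libraries and in eGFP libraries 1 and 2, whereas eGFP libraries 3 to 5 held 2701 to 3509 counts of Y chromosome genes. Counts of 6 γ-crystallin genes of the lens made up 0.0634 to 0.280% of the retinal eGFP libraries and 0.0956 to 1.82% of the retinal *nsHif1a* libraries. The summed level of 5 marker genes of the retinal pigment epithelium varied widely within both groups. It ran from 20.3 to 651 CPM in retinal eGFP libraries and from 30.7 to 766 CPM in retinal *nsHif1a* libraries. In 661W cells, replicates 1 and 2 stood apart from replicates 3 and 4 in several of the values below. The rod marker *Nrl* averaged 1338 CPM in control retina but 0.0324 CPM in control 661W cells, and the cone marker *Arr3* averaged 154 and 0.0150 CPM, so these photoreceptor markers were nearly absent from the line.

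Of the subunits tested, *Hif1a* alone passed the test for a change with nsHif1a, and it did so in the cells, where it rose, but not in the retina. *Hif1a* (ENSMUSG00000021109.14, plus strand, chr12:73948149-73996321) encodes the α-subunit of HIF1. In the retina, the eGFP libraries 1 to 5 had 693, 657, 698, 638 and 656 CPM. The *nsHif1a* libraries 1 to 5 had 642, 683, 729, 683 and 700 CPM. These ranges overlapped over most of their width. The log2 fold change (log2FC) was 0.05 (standard error (SE) 0.04, 95% limits -0.04 and 0.14, adjusted *p* = 0.50 in limma, with Benjamini-Hochberg (BH) adjustment here and below), which bounds the change of total *Hif1a* RNA between 0.974-fold and 1.10-fold. Of the rod markers *Gnat1*, *Sag*, *Pde6b*, *Nrl* and *Nr2e3*, from the cells to which transgene expression was directed, none was called. *Gnat1* (10395 ± 700 against 8376 ± 1007 CPM (SD, n = 5), log2FC -0.31, adjusted *p* = 0.021 in limma) and *Sag* (5219 ± 138 against 4394 ± 387 CPM, log2FC -0.24, adjusted *p* = 0.015 in limma) were lower by less than the fold threshold. Their part in the *Hif1a* value was not tested, and in a bulk sample fewer rods and less RNA per rod cannot be told apart. By Western blot, the paper reports markedly more HIF1A protein in retinal extracts at the same time after injection. That is a measure of protein, not of RNA.

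In 661W cells, *Hif1a* stood at 152, 150, 161 and 164 CPM in eGFP libraries 1 to 4. It stood at 1222, 1242, 1954 and 1825 CPM in *nsHif1a* libraries 1 to 4. Every transfected library thus lay far above every control, and replicates 3 and 4 lay above 1 and 2. The log2FC was 3.26 (SE 0.13, adjusted *p* = 1.2e-05 in limma), a 9.57-fold rise with 95% limits of 7.77 and 11.8. The ratio of means was 8.16 in replicates 1 and 2 and 11.6 in replicates 3 and 4. Counts per gene hold endogenous and plasmid-derived *Hif1a* together, and their shares cannot be told apart in these tables.

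The difference between the experiments was tested directly. Over 18 libraries, limma's interaction term put the retinal effect on *Hif1a* minus the cellular effect at -3.29 on the log2 scale (SE 0.15, BH-adjusted *p* = 3.5e-10), and 2.33% of 20999 genes passed that test. Without a filter on low counts the difference was -3.35, but its adjusted *p* was 0.22. In that fit the precision weights of *Hif1a* reached 115000, against 349 with the filter. Tissue, vector, promoter, route and time differ between the experiments and cannot be told apart.

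**Figure D1:**
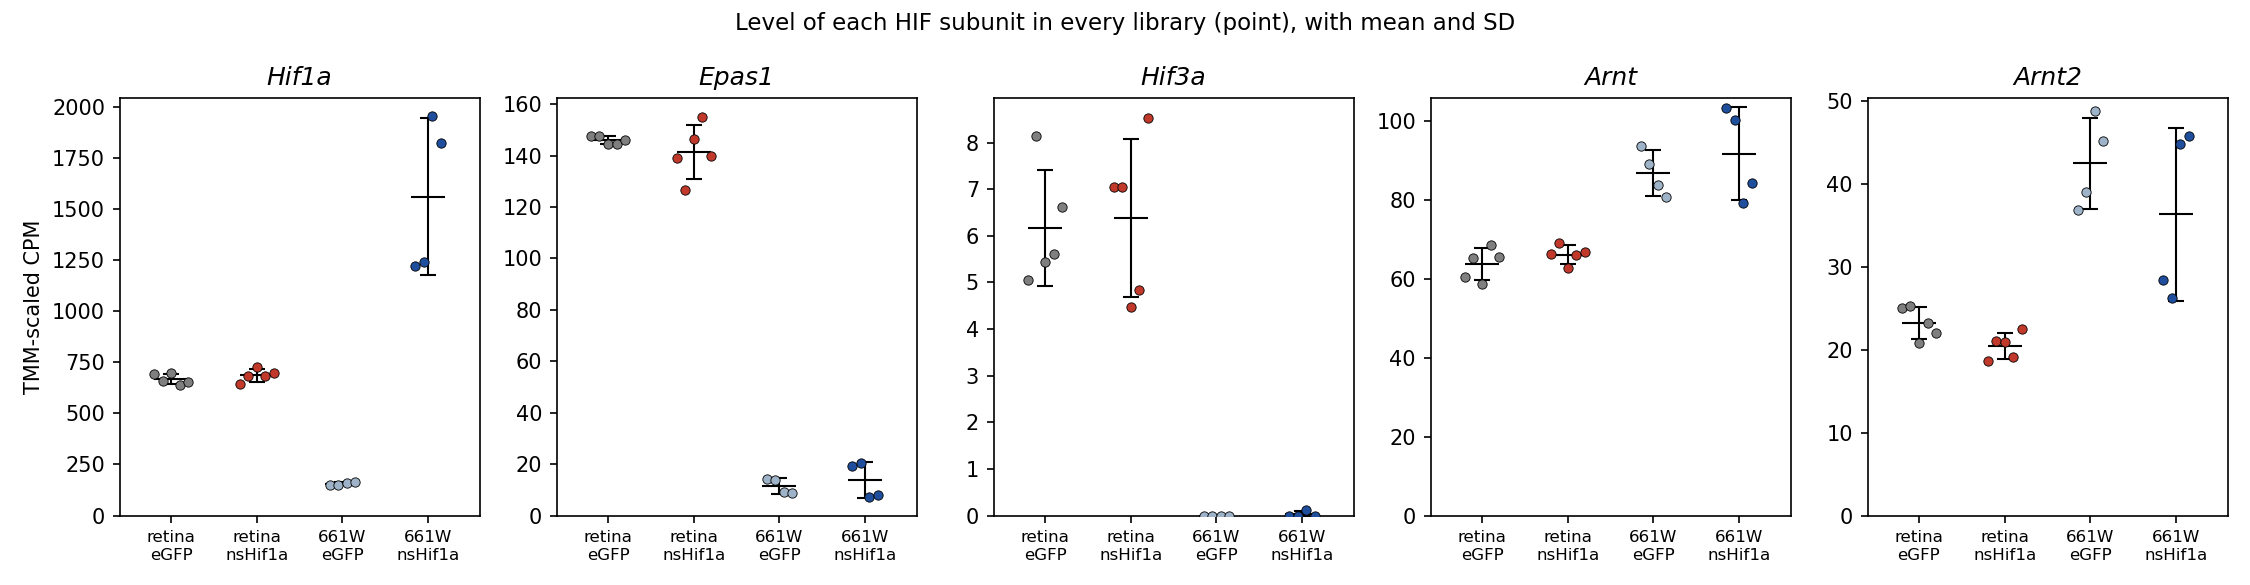
TMM-scaled CPM of the 5 HIF subunits (y axes, linear from 0) in every library (points) of the 4 groups (x axis), with mean and SD as bars. *Hif1a* lies between 1222 and 1954 CPM in 661W *nsHif1a* libraries and between 150 and 164 CPM in 661W eGFP libraries, while both retinal groups lie between 638 and 729 CPM.

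The other α-subunits did not pass the test in either experiment. *Epas1* (ENSMUSG00000024140.11, plus strand, chr17:87061087-87140838) encodes HIF2A, a paralogue of HIF1A with a partly different set of targets. In the retina it stood at 148, 148, 145, 144 and 146 CPM with AAV::eGFP. With AAV::*nsHif1a* it stood at 139, 127, 146, 155 and 140 CPM. The eGFP libraries lay close together, and the *nsHif1a* libraries lay on both sides of them. The log2FC was -0.07 (SE 0.05, 95% limits -0.18 and 0.04, adjusted *p* = 0.48 in limma).

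*Epas1* in 661W cells stood at 14.4, 13.7, 9.12 and 8.71 CPM with eGFP. It stood at 19.3, 20.4, 7.31 and 8.06 CPM with *nsHif1a*. In replicates 1 and 2 the *nsHif1a* libraries were higher than both controls, and in replicates 3 and 4 they were lower. The log2FC over all 8 libraries was 0.17 (SE 0.34, 95% limits -0.59 and 0.94, adjusted *p* = 0.81 in limma). Replicates 1 and 2 alone gave 0.49 (adjusted *p* = 0.00063, limma), under the fold threshold, and replicates 3 and 4 alone gave -0.22 (adjusted *p* = 0.46, limma). Without *nsHif1a* replicate 3 or 4 the log2FC was 0.74 or 0.73 and was called (adjusted *p* = 0.027 and 0.032, limma), and without *nsHif1a* replicate 1 or 2 it was -0.47 in each case (adjusted *p* = 0.27, limma). The fits without *nsHif1a* replicate 3 or 4 called many more genes than the main fit. Without replicate 3, 1201 genes were called higher and 677 lower of 16171 tested. Without replicate 4 these were 1194 and 682 of 16166, against 193 and 10 of 15962 with all 8 libraries. The difference between the pairs of replicates was not tested. Fits to replicates 1 and 2 or to 3 and 4 alone, here and below, rest on 2 libraries per group. Their *p*-values measure a spread that may be technical, and are no evidence of an effect in other cultures.

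*Hif3a* (ENSMUSG00000004328.16, minus strand, chr7:16764918-16796352) encodes another α-subunit, some isoforms of which inhibit HIF. It was the lowest subunit in the retina, with 5.04, 8.14, 5.45, 5.62 and 6.62 CPM for AAV::eGFP. The AAV::*nsHif1a* libraries had 7.05, 7.05, 4.47, 4.84 and 8.53 CPM. Both groups spread over the same range, from 63 to 133 counts per library. The log2FC was 0.00025 (SE 0.18, 95% limits -0.40 and 0.40, adjusted *p* = 1.0 in limma), and the upper limit corresponds to a 1.32-fold rise. In 661W cells *Hif3a* had 0 counts in 7 of 8 libraries and 2 counts in *nsHif1a* library 3, and it was not tested there.

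The β-subunits did not pass the test in either experiment. *Arnt* (ENSMUSG00000015522.20, plus strand, chr3:95341365-95404551) encodes HIF1B, the general partner of the HIF α-subunits and of the aryl hydrocarbon receptor. In the retina it ranged from 58.8 to 68.6 CPM (median 65.2) with AAV::eGFP and from 62.6 to 69.0 CPM (median 66.3) with AAV::*nsHif1a*. The log2FC was 0.05 (SE 0.05, 95% limits -0.06 and 0.16, adjusted *p* = 0.60 in limma). In 661W cells *Arnt* stood at 93.7, 89.1, 83.7 and 80.6 CPM with eGFP and at 103, 100.3, 79.2 and 84.2 CPM with *nsHif1a*. The groups overlapped, and the log2FC was 0.08 (SE 0.09, adjusted *p* = 0.62 in limma). Replicates 1 and 2 alone gave 0.15 (adjusted *p* = 0.012, limma), under the fold threshold, and replicates 3 and 4 alone gave -0.0095 (adjusted *p* = 0.96, limma).

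*Arnt2* (ENSMUSG00000015709.10, minus strand, chr7:83895483-84059740) encodes a β-subunit prominent in neurons. In the retina it stood at 24.99, 25.26, 20.85, 23.19 and 21.98 CPM with AAV::eGFP. With AAV::*nsHif1a* it stood at 18.67, 21.04, 20.93, 19.09 and 22.45 CPM. The *nsHif1a* libraries lay lower on average, but the ranges overlapped. The log2FC was -0.17 (SE 0.07, 95% limits -0.32 and -0.02, unadjusted *p* = 0.030, adjusted *p* = 0.18 in limma). Among the 7 retinal libraries with high *Xist* counts it was -0.29 (adjusted *p* = 0.12, limma).

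*Arnt2* in 661W cells stood at 36.9, 39.1, 48.9 and 45.2 CPM with eGFP. It stood at 28.5, 26.2, 44.9 and 45.8 CPM with *nsHif1a*. Libraries 1 and 2 of *nsHif1a* lay below all controls, and libraries 3 and 4 lay among the controls. The log2FC was -0.28 (SE 0.18, 95% limits -0.68 and 0.12, adjusted *p* = 0.40 in limma). Replicates 1 and 2 alone gave -0.47 (adjusted *p* = 3.7e-05, limma), under the fold threshold, and replicates 3 and 4 alone gave -0.06 (adjusted *p* = 0.70, limma). Without *nsHif1a* replicate 3 or 4 the log2FC was -0.58 or -0.59 and was called (adjusted *p* = 0.0063 and 0.0055, limma). Without *nsHif1a* replicate 1 or 2 it was 0.06 or 0.07 (adjusted *p* = 0.81 and 0.74, limma). As given for *Epas1*, the fits without replicate 3 or 4 called 1201 and 1194 genes higher and 677 and 682 lower. The call of *Arnt2* there does not set it apart from those genes.

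By count, 0 of 5 subunits were called in the retina by limma, by edgeR's quasi-likelihood test and by DESeq2, and 1 of 5 had an unadjusted *p* under 0.05 by each tool, against 4097 of all 18859 genes tested by limma. Genes were called at an adjusted *p* under 0.05 and an absolute log2FC above 0.5, and 1.99% of the 18859 genes tested in the retina passed. In 661W cells 1 of 4 tested subunits was called, against 1.27% of 15962 genes. It was *Hif1a*, whose counts there hold plasmid-derived RNA as well. No difference between retinal and cellular effects passed for *Epas1* (-0.05, adjusted *p* = 0.97), *Arnt* (0.013, adjusted *p* = 0.97) or *Arnt2* (0.015, adjusted *p* = 0.99), all from limma's interaction term. Without 661W *nsHif1a* replicate 3 or 4, the difference for *Epas1* was -0.76 in each case (adjusted *p* = 0.018 and 0.022, limma). In those fits 1641 and 1664 genes passed with a positive difference and 1456 and 1449 with a negative one, of 21454 and 21452 tested. With all 18 libraries these were 227 and 262 of 20999.

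**Figure D2:**
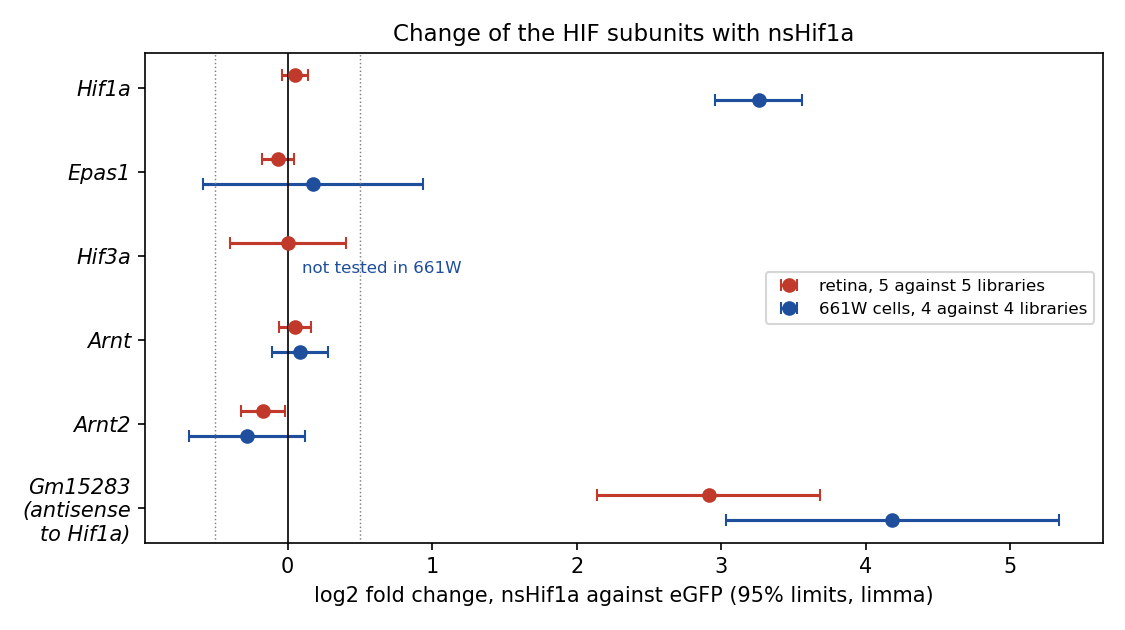
log2FC with 95% limits (x axis) of the HIF subunits and of the antisense gene *Gm15283* (y axis) in retina (red) and 661W cells (blue), with dotted lines at the threshold of 0.5 in both directions. *Hif1a* is at 3.26 in cells and 0.05 in retina, whereas *Gm15283* lies at 2.91 in retina and 4.18 in cells.

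**Figure D3:**
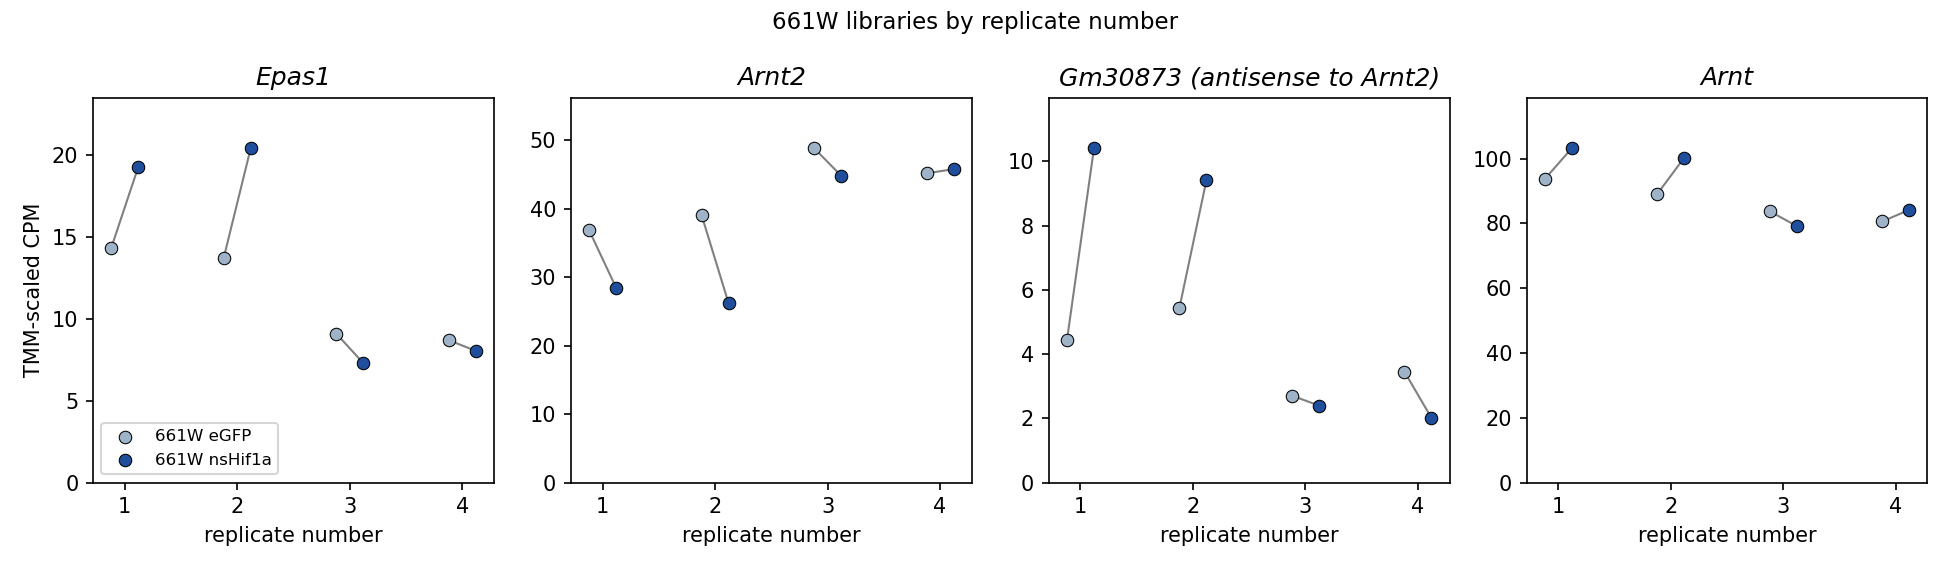
TMM-scaled CPM (y axes, linear from 0) in 661W libraries by replicate number (x axes), with lines joining the eGFP (pale) and *nsHif1a* (dark) library of the same number. *Epas1* and *Gm30873* are higher with *nsHif1a* in replicates 1 and 2 and lower in 3 and 4, and *Arnt2* is lower in replicates 1 and 2.

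A gene annotated on the minus strand of the *Hif1a* locus had more counts with *nsHif1a* in both experiments. *Gm15283* (ENSMUSG00000087700.5), a long non-coding RNA, lies at chr12:73889811-73996735 on the strand opposite to *Hif1a*, and was examined after its values were seen, with all genes that overlap a subunit. Its exons cover 332 of the 2508 coding bases of Hif1a-201, mainly in stretches of 191 and 139 bases. The longer stretch spans codons 12 to 76, in the region near the start of the protein that holds the basic helix-loop-helix domain for DNA binding. It is shown on the *Hif1a* strand because RNA from either strand of any copy of this sequence would be assigned to 1 of these genes.
Hif1a, chr12:73973331-73973521, plus strand: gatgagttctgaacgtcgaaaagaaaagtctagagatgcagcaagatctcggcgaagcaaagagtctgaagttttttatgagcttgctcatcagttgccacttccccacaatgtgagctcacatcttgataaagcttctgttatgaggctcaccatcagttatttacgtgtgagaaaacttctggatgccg

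*Gm15283* had 31, 33, 50, 35 and 48 counts in retinal eGFP libraries 1 to 5. It had 153, 375, 258, 309 and 543 counts in the *nsHif1a* libraries. The groups were fully apart. The log2FC was 2.91 (SE 0.36, 95% limits 2.14 and 3.68, adjusted *p* = 0.00094 in limma), a 7.53-fold rise, and among libraries with high *Xist* counts alone it was 3.19 (adjusted *p* = 0.048, limma). For each 100 *Hif1a* counts the retinal eGFP libraries had 0.324 to 0.551 *Gm15283* counts and the *nsHif1a* libraries 1.79 to 4.98. In retina the antisense gene thus passed the test and *Hif1a* did not.

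In 661W cells *Gm15283* had 1, 4, 6 and 1 counts with eGFP and 63, 26, 67 and 77 counts with *nsHif1a*. Its log2FC was 4.18 (SE 0.51, adjusted *p* = 0.0045 in limma). Per 100 *Hif1a* counts, however, the cells had 0.0396 to 0.219 *Gm15283* counts with eGFP and 0.147 to 0.290 with *nsHif1a*, and these ranges overlapped. Whether these counts come from the chromosome or from the vector cannot be told from counts per gene. How completely the counting separated the 2 strands was not tested.

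**Figure D4:**
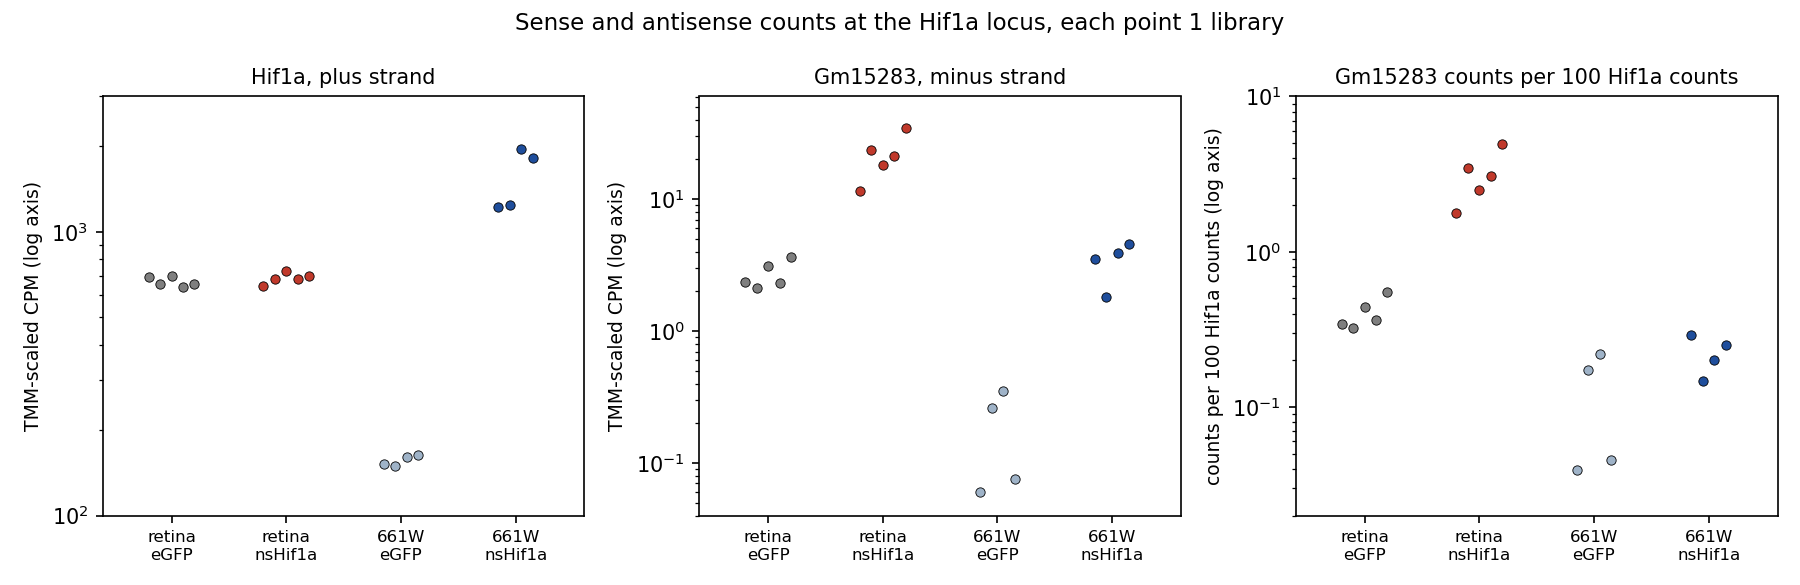
*Hif1a* CPM, *Gm15283* CPM and *Gm15283* counts per 100 *Hif1a* counts (log y axes) in every library (points) of the 4 groups (x axes). In the retina *Gm15283* per 100 *Hif1a* counts is 0.324 to 0.551 with eGFP and 1.79 to 4.98 with *nsHif1a*, while the *Hif1a* points of both retinal groups lie side by side.

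Among the other overlapping genes, all of them chosen after their values were seen, *Gm30873* shares 214 coding bases with *Arnt2* on the opposite strand. In 661W cells it had 74, 84, 46 and 46 counts with eGFP and 185, 134, 41 and 34 counts with *nsHif1a*, and for each 100 *Arnt2* counts there were 36.6 and 35.9 in *nsHif1a* libraries 1 and 2 but 5.35 and 4.40 in libraries 3 and 4. Its log2FC of 0.32 did not pass (adjusted *p* = 0.76 in limma), and without *nsHif1a* replicate 3 or 4 it was 1.21 or 1.23 (adjusted *p* = 0.024 and 0.015, limma). Those are the fits that called 1201 and 1194 genes higher and 677 and 682 lower. *Gm64482*, within an intron of *Epas1* on the opposite strand, had 16 to 41 counts in retinal eGFP libraries and 7 to 17 in *nsHif1a* libraries, with a log2FC of -0.93 (adjusted *p* = 0.077 in limma). It had 0 counts in all 661W libraries.

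Levels were compared between subunits as CPM per kilobase of merged exons. In control retina *Hif1a* was highest at 84.6 ± 3.30 CPM per kilobase (SD, n = 5). *Epas1* followed at 26.4 ± 0.289, *Arnt* at 10.5 ± 0.659, *Arnt2* at 3.06 ± 0.249 and *Hif3a* at 0.890 ± 0.179 CPM per kilobase. The ranges of neighbours in this order did not overlap, and the order was the same with AAV::*nsHif1a*. Control 661W cells had another order, in which both β-subunits stood above *Epas1*. There *Hif1a* was at 19.8 ± 0.860, *Arnt* at 14.3 ± 0.958, *Arnt2* at 5.59 ± 0.724 and *Epas1* at 2.07 ± 0.538 CPM per kilobase (SD, n = 4), again without overlap of neighbours. With CMV-*nsHif1a*, *Hif1a* reached 198 ± 48.6 CPM per kilobase, and the ranges of *Arnt2* (3.44 to 6.02) and *Epas1* (1.32 to 3.69) overlapped. A transgene RNA need not have the exon length of the gene, so the per-length level of *Hif1a* in transfected cells carries that uncertainty.

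**Figure D5:**
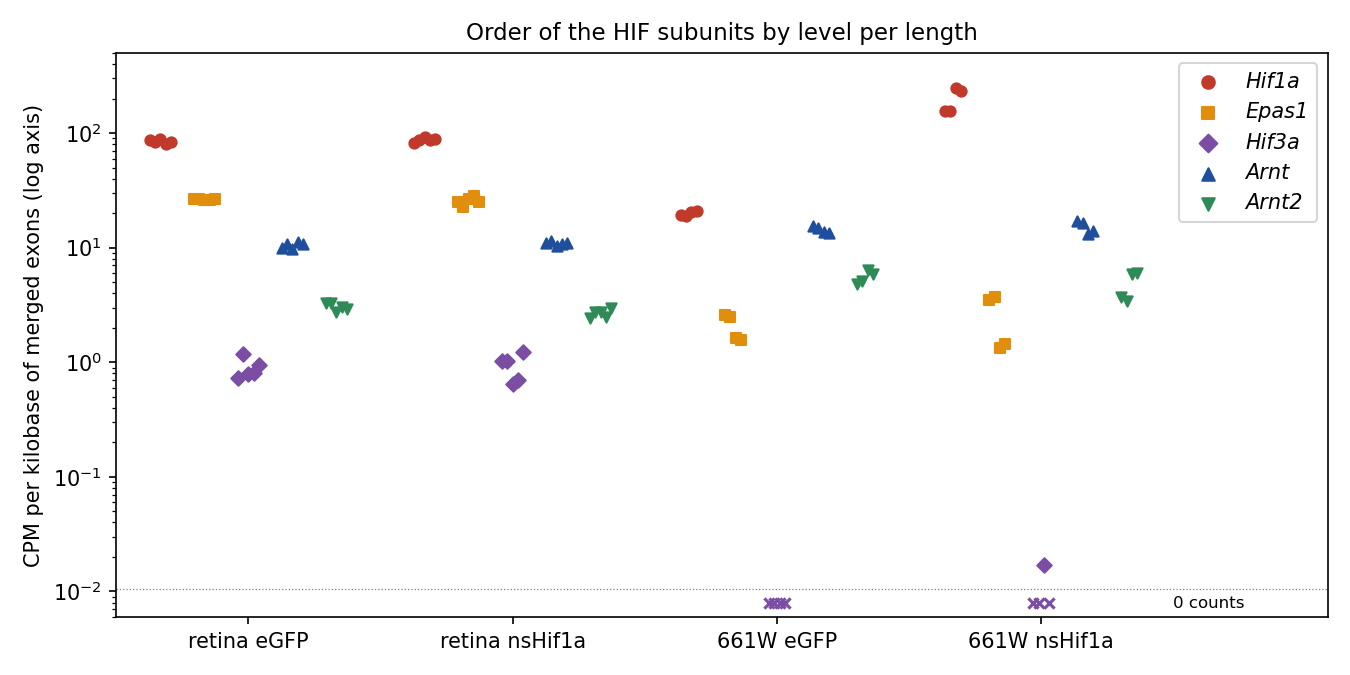
CPM per kilobase of merged exons (y axis, log scale) of the 5 subunits in every library (points) of the 4 groups (x axis), with libraries at 0 counts drawn as crosses under the dotted line. *Epas1* lies above both β-subunits in retina, and below both in control 661W cells.

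From the same levels, *Hif1a* made up 75.6 ± 0.782% of the summed α-subunit RNA in control retina and 76.7 ± 1.32% with AAV::*nsHif1a* (SD, n = 5 each). *Epas1* made up 23.6 ± 0.664% and 22.5 ± 1.39%. In 661W cells the share of *Hif1a* went from 90.5 ± 2.58% to 98.6 ± 0.964% (SD, n = 4 each), while the summed β-subunit level was 19.9 ± 0.490 CPM per kilobase with eGFP and 19.9 ± 0.744 with *nsHif1a*. The ratio of summed α-subunit to β-subunit RNA was 8.28 ± 0.701 in control retina, 8.36 ± 0.522 with AAV::*nsHif1a*, 1.10 ± 0.0399 in control cells and 10.1 ± 2.71 in transfected cells. α-subunit and β-subunit RNA were thus near parity in control cells alone. These shares and ratios are given as descriptions. Those of transfected cells divide plasmid-derived *Hif1a* counts by the exon length of the gene, and so carry the uncertainty of transgene length stated above.

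Control retina and control 661W cells were then compared in the fit over 18 libraries, in which 81.3% of 20999 genes were called and the median log2 difference of all genes was 0.30. *Hif1a* was 4.60-fold higher in retina (log2 difference 2.20, SE 0.11, adjusted *p* = 3.1e-13 in limma). *Epas1* was 13.8-fold higher (log2 difference 3.79, SE 0.17, adjusted *p* = 8.5e-14, limma). *Hif3a* averaged 6.17 CPM in control retina and had 0 counts in control cells, so that it was at least 27.6-fold higher in retina when set against the highest limit of 3 counts per library in those cells. The β-subunits went the other way. *Arnt2* was lower in retina (log2 difference -0.76, SE 0.13, adjusted *p* = 2.1e-05, limma), and *Arnt* was lower by less than the fold threshold (log2 difference -0.34, SE 0.07, adjusted *p* = 8.7e-05, limma). With RLE size factors, the median of all genes was 0.38, and *Arnt2* and *Arnt* were at -0.67 and -0.25. Without a filter on low counts, *Hif1a* kept a log2 difference of 2.17 but had an adjusted *p* of 0.10 (limma). With so many genes called, the subunits' calls do not set them apart from other genes.

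Enzymes that act on the α-subunits were among the genes that rose. The 10 genes of HIF hydroxylation and the VHL complex had a median log2FC of 0.08 in the retina, against -0.0021 for all genes tested. Of these 10 genes, 2 were called there, both higher, against 1.99% of all genes tested. These were the prolyl hydroxylases *Egln3* (8.60 ± 1.89 against 46.1 ± 19.2 CPM (SD, n = 5), log2FC 2.38) and *Egln1* (105 ± 9.02 against 266 ± 60.6 CPM, log2FC 1.30). Of the 9 tested in 661W cells, 1 was called, against 1.27% of all genes tested. It was *Vhl* (27.9 ± 1.35 against 40.3 ± 2.32 CPM (SD, n = 4), log2FC 0.53), and the median of the list was -0.03 against -0.0013. *Egln1* was at 0.38 in cells (adjusted *p* = 0.035 in limma), under the fold threshold. The asparaginyl hydroxylase *Hif1an* was at -0.03 in both (adjusted *p* = 0.70 and 0.77, limma).

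Other basic helix-loop-helix PAS genes, the wider family of the HIF subunits, were not called. Of 11 genes, 8 were tested in the retina and 7 in cells, and limma, edgeR and DESeq2 each called 0, with 1 gene at an unadjusted *p* under 0.05 by each tool in each experiment, against 4097 of 18859 genes in retina and 3304 of 15962 in cells by limma. The median log2FC was 0.07 in retina and 0.02 in cells. The aryl hydrocarbon receptor *Ahr*, another partner of ARNT, was at 55.2 ± 2.43 CPM with AAV::eGFP and 75.3 ± 10.3 CPM with AAV::*nsHif1a* (SD, n = 5), a log2FC of 0.44 under the fold threshold (adjusted *p* = 0.0067, limma). *Npas3* was at 0.94 in cells (adjusted *p* = 0.14, limma).

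The 12 HIF coactivators and modulators had a median log2FC of 0.09 in the retina and 0.03 in cells. Of them, 1 was called in the retina and 2 of 11 tested in cells, all higher, against 1.99% and 1.27% of all genes tested. They were the repressors *Bhlhe41* (log2FC 0.52 in retina and 1.09 in cells) and, in cells, *Bhlhe40* (0.93), whose retinal value of 0.41 lay under the fold threshold (adjusted *p* = 0.0018, limma). The coactivators *Ep300* and *Crebbp* were at 0.01 and 0.02 in retina and at 0.08 and 0.08 in cells, and none of these passed. A further list, here the PCR list, was taken from the study's PCR panels. The paper names *Egln1*, *Bnip3* and *Slc2a3* as HIF1 targets. It presents *Vegfa*, *Fgf2*, *Egln1*, *Edn2* and *Pfkfb3* as vascular and angiogenic genes, measured in retina to check changes seen by sequencing. Calls of the latter as higher in retina were thus settled by their choice, and the list is not independent evidence of a direction. All 7 of these genes were called higher in retina, with a median log2FC of 0.98, and 4 of 6 tested were called higher in cells, with a median of 1.14. The shares of all genes called are those given above, and *Egln1* stands both in this list and in that of HIF hydroxylation. *Edn2* (1.92) and *Fgf2* (1.87), a vasoactive peptide and a growth factor, had the largest values in retina, and *Slc2a3* (1.86) and *Bnip3* (1.85), a glucose transporter and a mitophagy protein, in cells. *Fgf2* was at -0.55 in cells (adjusted *p* = 0.56, limma), and *Edn2* had 0 counts there. The genes of the PCR list were thus higher in retinas whose total *Hif1a* counts did not pass the test, but they were in part picked for that rise.

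The protein-coding genes most like each subunit were named by the correlation of log2 CPM after the mean of each experiment was subtracted. Differences between *nsHif1a* and eGFP libraries were left in these values. The points share libraries and replicate sets, and the values are descriptions across 18 libraries. *Hif1a* was most like *Atp7b* (r = 0.985), *Mgarp* (r = 0.979) and *Stc1* (r = 0.974) among 11455 genes, with log2FC in cells of 5.33, 3.24 and 6.22. In the retina their log2FC were -0.07, 0.14 and 0.55, and none was called. *Epas1* was most like *Cpne8* (r = 0.983), *Alpl* (r = 0.969) and *Zfpm2* (r = 0.963), none of which was called in either experiment. *Arnt* was most like *Nfkbie* (r = 0.897), *Mtcl1* (r = 0.887) and *Adamts5* (r = 0.884), and *Arnt2* was most like *Lpin3* (r = 0.927), *Rgs12* (r = 0.924) and *Shroom4* (r = 0.924). For *Hif3a*, over the 10 retinal libraries and 14304 genes, they were *Gatb* (r = 0.933), *Neurl2* (r = 0.914) and *Golgb1* (r = 0.884).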

How the data were processed

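RNA was analysed from 10 retinal and 8 661W libraries, grouped by their titles. The authors prepared stranded mRNA libraries, aligned paired-end reads to GRCm39 (Rsubread) and made strand-specific counts per gene (featureCounts, basic gencode M36 annotation). The deposited values are raw counts, with no filter or normalization. Since counting used the strand, a gene and its antisense partner were counted as separate genes, and how completely the strands were separated was not tested.

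Genes were filtered with filterByExpr (minimum count 10), scaled by TMM (edgeR 4.0.16) and fitted with voomWithQualityWeights, lmFit and eBayes (limma 3.58.1, R 4.3.3), separately for each experiment. These functions follow the study's methods, except that the methods tie the minimum count to library size and do not say whether the experiments were fitted apart. All *p*-values were adjusted over all genes tested. The interaction and the baseline contrast used all 18 libraries. The procedure was tested on simulated counts. CPM values are TMM-scaled within each experiment, and log2 CPM uses a prior count of 2. Coordinates come from gencode M39 (78168 of 78239 genes matched).

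Replicate numbers of the cell libraries come from the titles. Deviations from the group means correlated between same-numbered 661W libraries across genes (r = 0.227 to 0.269 for the 4 numbers). No correlation was computed between libraries of different numbers. Pairing by number thus cannot be told apart from a difference between replicates 1 and 2 and replicates 3 and 4. The main fits did not pair the libraries. As alternatives, DESeq2 1.42.0, edgeR's quasi-likelihood test, no sample weights, RLE size factors, no filter, a block for the replicate number, the *Xist* class, the γ-crystallin mean, the pairs of 661W replicates and the omission of each library were tried.

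The 5 subunits and all gene lists were chosen with earlier results of these data known. The text names the subunits, at most 4 examples per pathway list (those called with the largest change, else the largest change) and the 3 genes most like each subunit. Antisense and other overlapping genes, *Hif1an*, *Ep300* and *Crebbp*, and list genes under the fold threshold were added after their values were seen. The legend in the paper gives 5 cell libraries per group, whereas the labels hold 4. Amino acid sequences are not shown here.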

Additional observations from a re-analysis of the deposited data

Results flagged for a closer look

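*Hif1a* counts, which hold endogenous and transgene-derived RNA together, differed between the experiments in their change with *nsHif1a*. The effect in retina minus the effect in 661W cells was -3.29 on the log2 scale (SE 0.15, BH-adjusted *p* = 3.5e-10 for the interaction in limma). The retinal change did not pass the test, and cells had a 9.57-fold rise, where all 4 transfected libraries lay above all 4 controls. The direction was the same in all 18 fits that left out 1 library each, with values from -3.50 to -2.96. No library of the subunits or of *Gm15283* stood far enough from the rest of its group to be singled out among the 22 combinations of gene and group that were examined, where chance gives about 1 in 20.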

How the results depend on the processing

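Of the values set against an alternative, 371 kept their direction and their side of the threshold, 45 changed sign, 9 gained and 2 lost a call, and 9 levels or counts without a test moved. The rise of *Hif1a* in 661W cells (3.02 to 3.54 with all settings but the omission of libraries) and of *Gm15283* in both experiments kept their calls in every alternative tried, the omission of each library included. Without a filter on low counts, the interaction of *Hif1a* (-3.35, adjusted *p* = 0.22) and its baseline difference (2.17, adjusted *p* = 0.10) lost their calls in limma, beside precision weights of up to 115000 for *Hif1a*, and the interaction of *Arnt2* was -0.034. Small values changed sign. *Hif3a* in retina was -0.10 both with the *Xist* class as a covariate and among high-*Xist* libraries alone. With the γ-crystallin mean as a covariate it was 0.28 (adjusted *p* = 0.55), *Epas1* was -0.17 (adjusted *p* = 0.14) and *Arnt2* -0.13 (adjusted *p* = 0.54), all in limma. In 661W replicates 3 and 4 alone, *Epas1* was -0.22, *Arnt* -0.0095 and *Gm30873* -0.45. The interaction of *Arnt* was -0.021 by edgeR, -0.011 without sample weights and -0.020 with the replicate block.
Leaving out 1 library at a time moved *Hif3a* in retina from -0.14 to 0.17 and, in 661W cells, *Epas1* from -0.47 to 0.74, *Arnt* from -0.066 to 0.21, *Arnt2* from -0.59 to 0.073 and *Gm30873* from -0.72 to 1.23. It moved the interactions of *Epas1* from -0.76 to 0.40, of *Arnt* from -0.15 to 0.11 and of *Arnt2* from -0.24 to 0.41. The cause was not tested beyond the values by replicate given in the report. The replicate block gave 3.31 for *Hif1a* in cells (adjusted *p* = 0.00010, limma) and changed no call of a subunit. In the retina the same correlation between same-numbered libraries went from -0.15 to 0.14 across genes, and the block gave 0.04 for *Hif1a*. With no fold threshold, the counts of higher genes became 1 for the PAS relatives in retina, 2 and 3 for the coactivators in retina and cells, and 2 for the hydroxylation list and 5 for the PCR list in cells. Per length of the longest coding transcript, control retina held 97.5 (*Hif1a*), 13.4 (*Arnt*) and 3.52 (*Arnt2*) CPM per kilobase, and control cells 22.9, 18.2 and 6.44. With 4 or 5 libraries per group and at most 3 counts as the limit, changes of *Hif3a* in cells could not be examined.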
